A study of Mus musculus with 12 samples.

Results

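The genes described here are 10 scavenger and endocytic receptors that are commonly used to recognise tissue-resident macrophages, namely Cd163, Folr2, Lyve1, Mrc1, Stab1, Vsig4, Timd4, Msr1, Marco and Cd5l. They were taken by gene name from a list fixed with earlier results of these data known. They are 10 of 53801 gene rows and were all found in both deposited count tables. The cells came from cutaneous squamous cell carcinomas of mice of the strain FVB, in 12 libraries of sorted cells. FceRIa-positive macrophages (3 libraries) were set against FceRIa-negative macrophages (3 libraries), both gated as CD45+ F4/80+ cells of the tumor. FceRIa is the chain of the mast cell and basophil receptor that holds IgE. Reporter-positive tumor cells (3 libraries), which carry active TGF-beta signalling as read by mScarlet, were set against reporter-negative tumor cells (3 libraries), both sorted as Rosa-YFP+ CD49f+ CD29+ basal cells. The promoter that drives the lineage mark, the age and sex of the mice and any pooling are not stated in the labels.

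Scavenger receptors bind modified lipoproteins, dying cells, microbial surfaces and spent plasma or matrix molecules, and carry them into the cell for breakdown. They are built from unrelated protein families and are grouped by what they take up. In skin and other tissues, macrophages that live long in the tissue and lie near vessels carry many of them, whereas freshly recruited monocytes carry few. Some are shared with endothelium: Lyve1 also marks lymphatic vessels and Stab1 also marks sinusoidal and tumor vessels.

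The number of motif matches upstream of the genes differed between the receptors. RefSeq entries on GRCm38.p6 gave the 250 bases before the start for 8 of the 10 genes, in 9 windows, and Msr1 and Lyve1 were not matched. The windows of the most abundant matched receptors, Mrc1 and Stab1, and of the receptors with wide differences between the macrophage groups, Cd163 and Vsig4, are printed 5' to 3' on the gene's strand. They lie at chr2:14229164-14229413 (plus strand), chr14:31168642-31168891 (minus), chr6:124304401-124304650 (plus) and chrX:96293439-96293688 (minus), in the order in which they are listed. Capitals mark matches to the motifs searched.
Mrc1: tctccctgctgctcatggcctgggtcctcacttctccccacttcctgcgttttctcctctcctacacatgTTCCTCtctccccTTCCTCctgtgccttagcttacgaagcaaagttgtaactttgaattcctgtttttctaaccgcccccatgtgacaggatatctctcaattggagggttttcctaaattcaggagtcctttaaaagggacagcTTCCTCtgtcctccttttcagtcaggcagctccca
Stab1: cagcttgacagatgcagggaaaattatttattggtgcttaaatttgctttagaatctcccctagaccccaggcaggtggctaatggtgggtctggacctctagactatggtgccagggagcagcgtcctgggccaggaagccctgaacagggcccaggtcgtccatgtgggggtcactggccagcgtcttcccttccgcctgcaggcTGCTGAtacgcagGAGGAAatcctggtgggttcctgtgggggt
Cd163: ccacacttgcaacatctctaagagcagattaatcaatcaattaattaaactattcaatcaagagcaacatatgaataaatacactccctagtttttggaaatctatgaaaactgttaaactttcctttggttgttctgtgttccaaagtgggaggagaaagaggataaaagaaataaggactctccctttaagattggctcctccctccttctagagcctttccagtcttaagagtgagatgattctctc
Vsig4: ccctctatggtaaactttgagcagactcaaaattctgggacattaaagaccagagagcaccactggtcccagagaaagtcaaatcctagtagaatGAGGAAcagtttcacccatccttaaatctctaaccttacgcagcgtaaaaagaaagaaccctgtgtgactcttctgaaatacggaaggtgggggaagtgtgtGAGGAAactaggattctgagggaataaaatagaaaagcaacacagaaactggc
The motifs were searched on both strands. They were GAGGAA, a core bound by the myeloid factor PU.1, TGCTGA, a half-site bound by MAF factors, and TTC and GAA with any 4 bases between them, a site bound by STAT6. The Mrc1 window held 3 PU.1 cores, the Vsig4 window 2, and the Stab1 window 1 PU.1 core at bases -30 to -25 and 1 MAF half-site at bases -43 to -38. The Cd163 window held 0 matches. Over the 8 genes, 5 had a PU.1 core, against 23.3% of 32851 RefSeq promoters of the same length. The MAF half-site was in 4 genes, against 16.1% of promoters, and the STAT6 site in 1, against 5.85%. No match overlapped a match to another motif. A match is a string of letters, and binding was not measured.

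Total counts ran from 33704786 to 40041144 per macrophage library and from 27951632 to 35088897 per tumor library. Levels are CPM, counts adjusted for the size of each library, and a count of 3 corresponds to 0.0749 to 0.0890 CPM in macrophages and 0.0855 to 0.107 CPM in tumor cells, a limit that covers counting error only. Nothing in the labels says that replicates were separate animals, so p-values measure the spread between these libraries. Macrophage replicates 2 and 3 did come from different mice: Xist, the RNA of the inactive X chromosome, had 6 counts in positive and 4 in negative replicate 2, against 18122 in positive and 16108 in negative replicate 3. Replicate 1 had both Xist, at 12096 counts in positive and 8506 in negative cells, and the Y-linked gene Ddx3y. Ddx3y had 1584 and 1287 counts there, so replicate 1 held RNA of both sexes. The tumor libraries had 0 to 5 counts of Xist and 886 to 1459 of Ddx3y, so sex differed between them and some macrophage libraries. Macrophage libraries of the same number deviated together, so each comparison was fitted in 2 ways, without replicate numbers (the unblocked fit) and with one term per replicate number (the blocked fit). edgeR's quasi-likelihood test gave the adjusted p-values, by Benjamini-Hochberg over all tested genes.

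The receptors were higher in FceRIa-positive than in FceRIa-negative macrophages. Every positive library lay above every negative library for 9 of the 10 genes, where 11.6% of the 14988 tested genes had groups apart in that direction. With CPM from library totals, without TMM scaling, 8 of the 10 were apart, where 7.1% of tested genes were, since Marco then overlapped. The widest gaps, of over 3 on the log2 scale, were those of the complement receptor Vsig4, the hyaluronan receptor Lyve1, the folate receptor Folr2 and the hemoglobin receptor Cd163. The abundant receptors Mrc1, Stab1 and Msr1 differed by 1.06 to 1.86. In the blocked fit all 9 genes that passed the filter on low counts rose, with adjusted p from 0.000114 to 0.0140, where 10.8% of tested genes rose, and their median log2 difference was 1.94 against -0.0039 over all tested genes. In the unblocked fit 0 of the 9 passed, where 0% of tested genes were called higher, with adjusted p from 0.0585 to 0.376. The lowest adjusted p of any gene in that fit was also 0.0585. An unadjusted p under 0.05 was reached by 8 of the 9, where 8.29% of tested genes were higher at that p, and DESeq2 without pairing called 7 higher, where it called 4.39% of tested genes higher. Lyve1, Vsig4 and Marco passed the filter chiefly through the positive libraries. The other 6 passed it in all negative libraries as well, and all 6 rose in the blocked fit.

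**Figure D1:**
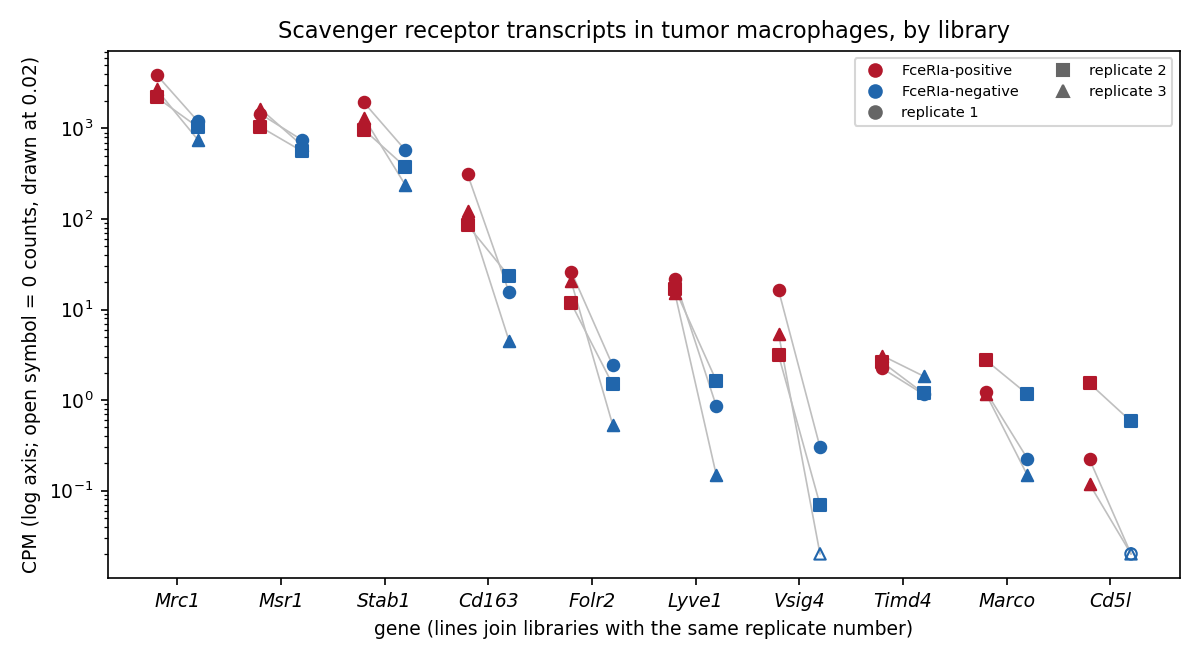
CPM (log axis) of the 10 receptors in each macrophage library, FceRIa-positive in red to the left of FceRIa-negative in blue, with a line joining libraries of the same replicate number and open symbols for 0 counts. Every red symbol lies above every blue one except for Cd5l, and Cd163 spans 85.8 to 312 CPM in the positive libraries against 4.53 to 23.3 CPM in the negative ones.

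Cd163 (chr6:124304656-124330527, plus strand; gene spans are those of GENCODE M21 on GRCm38) takes up hemoglobin bound to haptoglobin. It had 312, 85.8 and 122 CPM in FceRIa-positive replicates 1 to 3 and 15.6, 23.3 and 4.53 CPM in FceRIa-negative replicates 1 to 3. The groups did not overlap, and positive replicate 1 stood well above the other positive libraries. Means were 173 ± 122 CPM in positive and 14.5 ± 9.45 CPM in negative macrophages (SD, n = 3 each), and the ratio within a replicate number ran from 3.68 to 26.8. Its log2 difference was 3.60 ± 0.50 in the blocked fit (SE), where it rose with an adjusted p of 0.00213, against 0.0704 in the unblocked fit. The call was lost without replicate 1, where the paired adjusted p was 0.0533 at a log2 difference of 3.13. Without replicate 2 the difference was 4.51 and the call was kept. Fits that leave out a replicate number have fewer libraries and fewer residual degrees of freedom than the full blocked fit. Their p-values are therefore less certain.

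Folr2 (chr7:101839988-101857194, minus strand) is the folate receptor of macrophages. It had 26.3, 11.7 and 20.4 CPM in positive libraries and 2.41, 1.49 and 0.533 CPM in negative libraries. The lowest positive library was several times above the highest negative one. Folr2 rose with a log2 difference of 3.71 ± 0.33 (adjusted p = 0.000386 blocked and 0.0585 unblocked). It shares 975 exon bases with Gm10602 on the opposite strand, a gene with 290 counts over the 6 macrophage libraries, and the strand setting of the counting is not given in the labels.

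Lyve1 (chr7:110850607-110863239, minus strand) binds hyaluronan. It had 21.5, 17.0 and 15.2 CPM in positive libraries and 0.854, 1.63 and 0.148 CPM in negative libraries. Its positive libraries were close to each other, at 17.9 ± 3.23 CPM, against 0.877 ± 0.740 CPM in the negative libraries (SD, n = 3 each). It rose by 4.39 ± 0.39 in the blocked fit (adjusted p = 0.000395, unblocked 0.0591), and by 5.23 when replicate 2 was left out. Lyve1 also marks lymphatic endothelium. The endothelial markers did not share one direction, with a median log2 difference of -0.25 over the 10 tested genes in the blocked fit. Pdpn, a glycoprotein of lymphatic and other cells, rose by 0.75 (18.1 CPM in positive and 10.6 CPM in negative libraries) and Pecam1 by 0.89. Vwf and Egfl7 had differences of -0.37 and -0.85 and were not called (adjusted p = 0.0952 and 0.0535). The lymphatic factor Prox1 had 0 or 1 count in each positive library and 0 to 8 counts in the negative libraries. The part of endothelial cells in the Lyve1 difference was not tested.

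Vsig4 (chrX:96247203-96293438, minus strand) is a receptor for complement fragments on resident macrophages. It had 592, 115 and 184 counts in positive libraries and 12, 3 and 0 counts in negative libraries, or 16.4, 3.14 and 5.42 CPM against 0.302, 0.0698 and 0 CPM. It was near the detection limit in the negative libraries. Only replicate 1 had over 3 counts in both groups, and there the ratio was 54.2. The blocked fit gave a log2 difference of 6.02 ± 0.37 (adjusted p = 0.000114, unblocked 0.0592), a size that depends on how counts of 0 are smoothed.

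Mrc1 (chr2:14229392-14332057, plus strand) is the mannose receptor. It had 3926, 2215 and 2701 CPM in positive libraries and 1198, 1033 and 747 CPM in negative libraries. The groups did not overlap. Mrc1 rose by 1.56 ± 0.16 (adjusted p = 0.000611, unblocked 0.0591), and its ratio within a replicate number ran from 2.14 to 3.61. Stab1 (chr14:31139013-31168641, minus strand) is a stabilin that internalises matrix proteins and oxidized lipoprotein. It had 1939, 972 and 1318 CPM in positive libraries and 577, 375 and 237 CPM in negative libraries. It rose by 1.86 ± 0.19 (adjusted p = 0.000641, unblocked 0.0755), with ratios of 2.59 to 5.55. For both genes replicate 1 was the highest library of each group.

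Msr1 (chr8:39581685-39642673, minus strand) is the class A receptor for modified lipoprotein. It had 1452, 1044 and 1654 CPM in positive libraries and 749, 564 and 655 CPM in negative libraries. The groups did not overlap, the ratio within a replicate number ran from 1.85 to 2.52, and it rose by 1.06 ± 0.12 (adjusted p = 0.000795, unblocked 0.0647). Marco (chr1:120474538-120505024, minus strand) is a class A receptor for bacteria and particles. It was a rare transcript with 45, 101 and 40 counts in positive and 9, 50 and 5 counts in negative libraries. Marco was highest in replicate 2 of both groups, where the 50 counts of the negative library exceeded the 45 and 40 of positive replicates 1 and 3, and the groups were apart only with TMM scaling, at 1.18 CPM in the lowest positive and 1.16 CPM in the highest negative library. From library totals those libraries had 1.08 and 1.25 CPM, and as TPM 1.64 and 1.94, so the groups overlapped. It rose by 1.94 ± 0.36 in the blocked fit (adjusted p = 0.00737, unblocked 0.376), by 2.67 without replicate 2, and without replicate 1 the adjusted p was 0.0784.

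Timd4 (chr11:46810800-46844332, plus strand) binds phosphatidylserine on dying cells. It had 81, 96 and 105 counts in positive and 46, 51 and 62 counts in negative libraries, or 2.24, 2.62 and 3.09 CPM against 1.16, 1.19 and 1.83 CPM. The gene was low in both groups. Timd4 rose by 0.95 ± 0.20 (adjusted p = 0.0140, unblocked 0.195), and the paired adjusted p was 0.0880 without replicate 1 and 0.0677 without replicate 2. Cd5l (chr3:87357881-87371073, plus strand) encodes a secreted protein of macrophages with scavenger receptor cysteine-rich domains. It had 8, 56 and 4 counts in positive and 0, 25 and 0 counts in negative libraries, overlapped between the groups and did not pass the filter. Like Marco it was highest in replicate 2 of both groups.

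**Figure D2:**
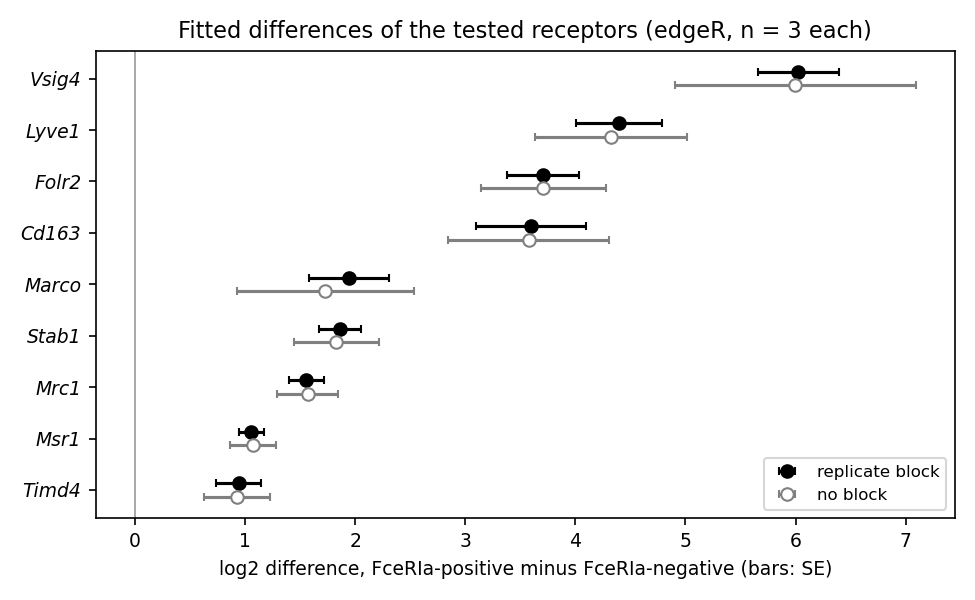
Log2 difference, FceRIa-positive minus FceRIa-negative macrophages, of the 9 tested receptors with its SE, in the blocked fit (black) and the unblocked fit (open), from 3 libraries per group. Both fits give like sizes, from 6.02 for Vsig4 to 0.95 for Timd4 in the blocked fit, and the errors are wider without the block.

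Levels of different genes were compared as TPM, which divides counts by exon length before scaling each library to the same total. In FceRIa-positive macrophages the order was Mrc1 at 1351 ± 445 TPM, Msr1 at 630 ± 113, Stab1 at 400 ± 150, Cd163 at 93.4 ± 69.1, Folr2 at 36.6 ± 14.2, Lyve1 at 18.0 ± 4.15, Vsig4 at 16.5 ± 14.6, Timd4 at 3.53 ± 0.368, Marco at 2.65 ± 1.48 and Cd5l at 0.920 ± 1.18 TPM (SD, n = 3). Among neighbours in that order, the ranges of Msr1 and Stab1, of Cd163 and Folr2, of Lyve1 and Vsig4, of Timd4 and Marco and of Marco and Cd5l overlapped. In FceRIa-negative macrophages Mrc1 (477 ± 110 TPM), Msr1 (316 ± 33.7), Stab1 (118 ± 48.8) and Cd163 (8.22 ± 5.60) kept those places, with ranges apart from each other. The ranges of Cd163 and Folr2 and of the lower neighbours overlapped. The ranges of Mrc1 and Msr1 only just stayed apart, with the lowest Mrc1 library at 352.0 TPM and the highest Msr1 library at 351.7 TPM. Vsig4 stood above Timd4, Marco and Cd5l in the positive group and last in the negative group. The order of the means was the same in each group with the length of the longest transcript, for which ranges were not compared.

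Mrc1, Msr1 and Stab1 made up nearly all receptor transcripts in both groups. Of the summed TPM of the 10 genes, which averaged 2552 (range 1946 to 3408) in positive and 926 (738 to 1095) in negative macrophages, Mrc1 took 52.7% (49.3% to 54.6%) in positive and 51.3% (47.7% to 55.0%) in negative libraries. Msr1 took 25.4% (20.3% to 30.3%) in positive and 34.8% (30.2% to 42.0%) in negative libraries, and Cd163 took 3.37% (2.45% to 5.07%) against 0.854% (0.337% to 1.45%). The share of Mrc1 overlapped between the groups, that of Msr1 overlapped only at its edge, and that of Cd163 was apart. These shares were not tested.

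**Figure D3:**
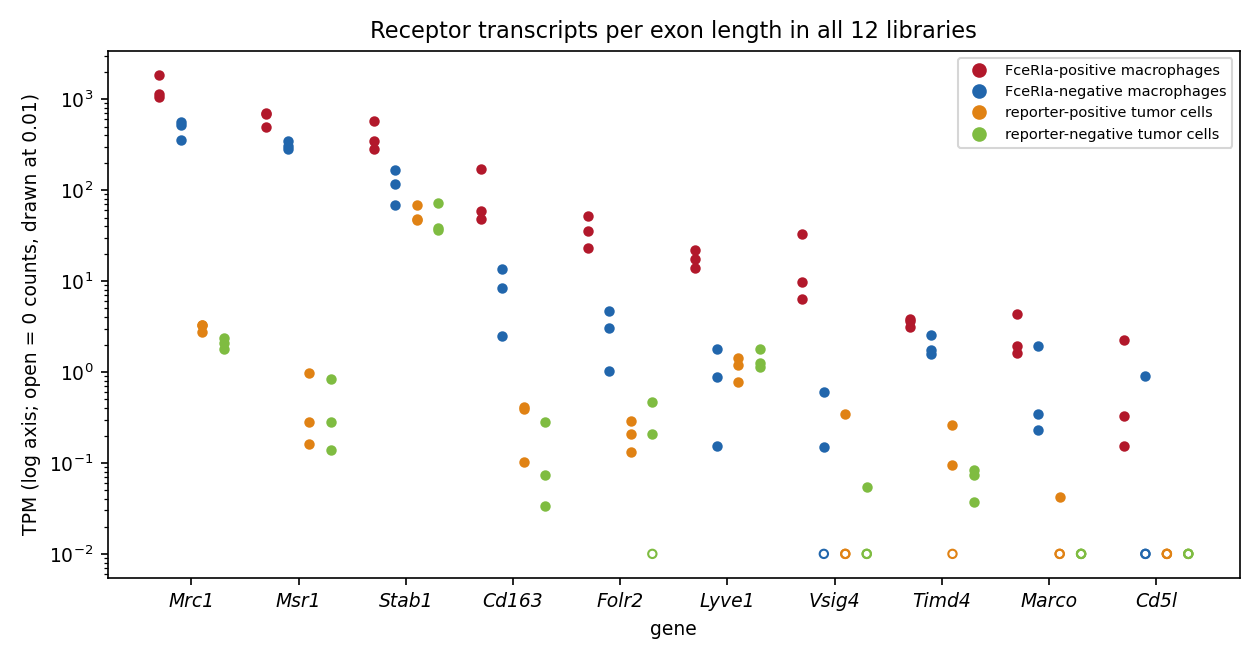
TPM (log axis) of the 10 receptors in each of the 12 libraries, with FceRIa-positive macrophages, FceRIa-negative macrophages, reporter-positive tumor cells and reporter-negative tumor cells side by side and open symbols for 0 counts. In tumor cells Stab1, at 54.7 TPM in reporter-positive and 49.0 TPM in reporter-negative cells, stands above the other 9 genes.

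The macrophage label held in both groups, and general macrophage genes had a smaller median difference than the receptors. The 10 macrophage markers summed to 26614 to 29541 CPM in positive and 15057 to 18995 CPM in negative libraries, with 0 of them absent. In the blocked fit 9 of the 10 rose and 0 fell, with a median log2 difference of 0.62. Lyz2, the macrophage lysozyme, rose by 0.94 and the engulfment receptor Mertk by 1.19. Adgre1, which encodes the F4/80 of the gate, rose by 0.63 ± 0.11 (adjusted p = 0.00498). Csf1r, the receptor for the macrophage growth factor, was at 2787 CPM in positive and 2468 CPM in negative libraries, with a log2 difference of 0.17 ± 0.11 (adjusted p = 0.307) and ratios of 1.07 to 1.18 within a replicate number. The pan-leukocyte gene Ptprc had ratios of 1.03 to 1.09. Fcer1a, which encodes the sorted surface chain, had 2, 7 and 1 counts in positive and 0, 4 and 3 counts in negative libraries, so its own transcript does not check the sort. Of the 8 tested sort and target genes 2 rose and 2 fell. The risers were Adgre1 and Fcer1g, the signalling chain shared by several Fc receptors, by 0.44 (1009 CPM in positive against 744 CPM in negative libraries). Ms4a2, the beta chain of the sorted receptor, fell by 1.48 (0.375 against 1.08 CPM, adjusted p = 0.0134), and Il1rl1, the receptor for interleukin 33, fell by 1.52 (1.89 against 5.47 CPM).

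Other genes of resident-type macrophages mostly rose as well. Their list, like the receptors, was chosen with earlier results of these data known, so it is no independent check. Of 27 listed genes 26 were tested, and in the blocked fit 22 rose and 2 fell, where 10.2% of tested genes fell, with a median log2 difference of 1.56. The endothelin receptor Ednrb was at 9.21 CPM in positive and 1.06 CPM in negative libraries and rose by 3.15 ± 0.18. The iron exporter Slc40a1, which handles iron released after hemoglobin uptake, was at 58.6 against 9.03 CPM and rose by 2.70 ± 0.09. Dab2, an endocytic adaptor, rose by 1.37 ± 0.12 (1558 against 604 CPM), and the oxysterol receptor gene Nr1h3 by 1.11 ± 0.14 (74.9 against 34.6 CPM). In the unblocked fit 0 of the 26 passed, as in every list.

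The other scavenger and endocytic receptors did not share one direction. Of 35 listed genes 27 were tested, 10 rose and 2 fell in the blocked fit, and the median log2 difference was 0.05, or -0.06 in the unblocked fit. The C-type lectin genes Cd209f and Cd209g were at 17.5 CPM in positive against 0.620 CPM in negative libraries and at 4.57 against 0.189 CPM, and rose by 4.83 ± 0.35 and 4.53 ± 0.36. They are near neighbours in sequence, and reads that fit both cannot be told apart. The lysosomal glycoprotein gene Cd68 rose by 0.90 ± 0.11 (709 against 377 CPM). Ly75, the endocytic receptor DEC-205 of dendritic cells, fell by 3.94 ± 0.36 on the log2 scale, with 2.48 CPM in positive and 42.2 CPM in negative libraries.

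Monocyte and inflammatory genes went both ways, with 6 of 24 higher, 8 lower and a median log2 difference of -0.27 in the blocked fit. Among them Plac8, a monocyte gene, fell by 0.95 (9.56 CPM in positive against 18.4 CPM in negative libraries), and the monocyte chemokine receptor Ccr2 fell by 0.67. The cytokine gene Tnf fell by 0.85, and Arg1, the arginase of alternatively activated and tumor macrophages, rose by 2.28 (189 against 39.6 CPM).

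**Figure D4:**
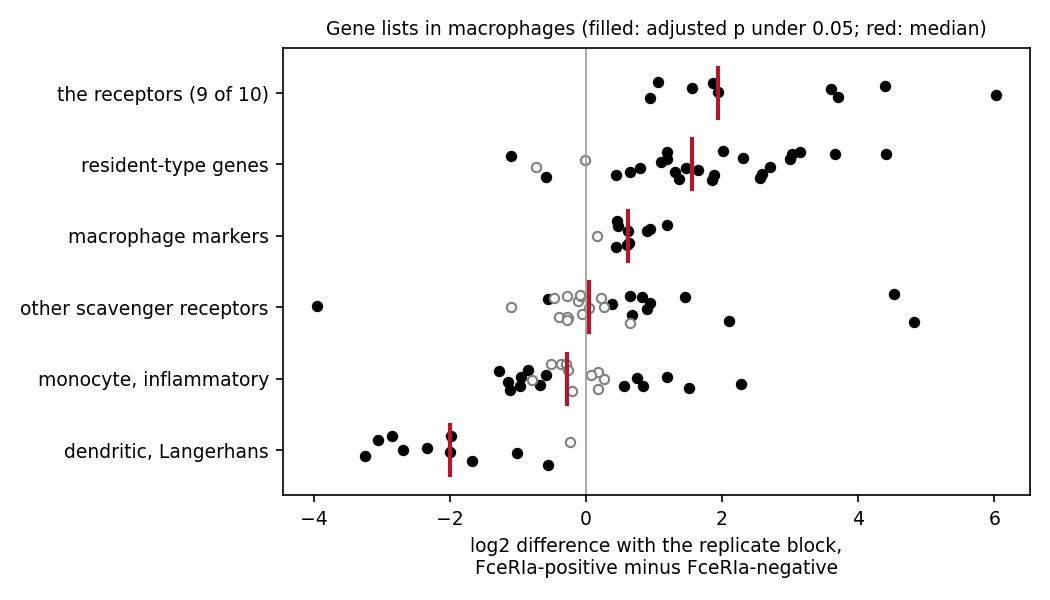
Log2 difference in the blocked fit, FceRIa-positive minus FceRIa-negative macrophages, of each tested gene of 6 lists, filled where the adjusted p was under 0.05, with the list's median in red. The medians are 1.94 for the receptors, 1.56 for resident-type genes, 0.62 for macrophage markers, 0.05 for other scavenger receptors, -0.27 for monocyte and inflammatory genes and -1.99 for dendritic and Langerhans cell markers.

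Markers of other cells also moved with the sort. Those of dendritic and Langerhans cells summed to 100.3 to 116 CPM in positive and 445 to 1073 CPM in negative libraries, and 10 of 11 tested genes fell and 0 rose (12 listed), with 0 absent from either group. The integrin gene Itgae fell by 2.69, the growth factor receptor gene Flt3 by 2.85, the peptidase gene Dpp4 by 1.67 and the transcription factor gene Zbtb46 by 1.98. The most abundant of these markers in negative libraries were Epcam, Cd207 and Cd24a. Epcam was at 31.1 CPM in positive and 306 CPM in negative libraries and fell by 3.24. Cd207 fell by 3.06 (18.9 against 147 CPM) and Cd24a by 1.99 (29.8 against 127 CPM). Reporter-positive and reporter-negative tumor cells also carried Epcam, at 192 and 178 CPM, and Cd24a, at 601 and 531 CPM. Mast cell and basophil markers summed to 10.2 to 41.2 CPM in positive and 19.8 to 157 CPM in negative libraries, with 4 of 9 tested genes lower, among them Kit by 1.82, and Mrgprb2 at 3 counts or fewer. Neutrophil markers summed to 124 to 243 CPM against 99.4 to 420 CPM, with 3 of 6 tested genes lower (10 listed) and Elane at 3 counts or fewer. Keratinocyte markers summed to 230 to 2543 CPM against 335 to 3528 CPM, with 7 of 10 lower.

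Lymphocyte markers summed to 123 to 170 CPM in positive and 47.4 to 69.7 CPM in negative libraries, most of it Cd4, which some macrophages also carry and which rose by 1.51. Of the 4 tested lymphocyte genes (10 listed) 1 rose and 2 fell, and Cd8a was at 3 counts or fewer. Endothelial markers summed to 75.7 to 118 CPM against 59.9 to 81.2 CPM, with 2 of 10 tested genes (12 listed) higher, Pecam1 and Pdpn, both of which macrophages can express. Fibroblast markers summed to 87.5 to 227 CPM against 109 to 142 CPM, with 1 of 10 higher and 1 lower. General leukocyte markers summed to 18536 to 25536 CPM against 23939 to 29425 CPM, with 2 of 10 higher and 2 lower. The part of these cells in the receptor differences was not tested. In bulk libraries, fewer cells that carry a receptor and less receptor RNA per cell cannot be told apart.

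Each of the 9 tested receptors was set against the mean profile of all 9 over the 6 macrophage libraries. Pearson r ran from 0.737 (Marco) and 0.740 (Timd4) to 0.993 (Folr2). Each gene is itself part of that mean, which raises its r, so these values do not test for a common profile. Among 8805 other genes with at least 10 CPM on average, the genes closest to that profile were Atg4c at 0.999, Ehd4 at 0.998, Kansl2 at 0.998, Adam9 at 0.998 and Rnf13 at 0.997. Their likeness is one of shape and not of size. Atg4c, a protease of autophagy, had 27.9, 25.2 and 25.6 CPM in positive and 19.7, 19.9 and 17.8 CPM in negative libraries. Adam9, a membrane metalloprotease, had 471, 375 and 411 CPM against 251, 247 and 216 CPM. All of these values come from the same 6 libraries in the same 2 groups, so a gene that separates the groups evenly correlates highly.

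In the sorted carcinoma cells most receptors were rare. Of the 9 receptors with reads in tumor cells, Stab1 and Lyve1 had the smallest ratios of macrophage to tumor level in both macrophage groups, and for Lyve1 the ratio was above 1 in FceRIa-positive and below 1 in FceRIa-negative macrophages. Ratios are to the mean of the 6 tumor libraries on a scale common to all 12 libraries. There 10 picked leukocyte genes were 447 to 951 times higher in FceRIa-positive and 391 to 839 times higher in FceRIa-negative macrophages. These 10 do not bound the leukocyte and macrophage lists, where C1qc had a similarly wide gap but Lcp1 and Cd68 had narrower ones. Scaled within each comparison, Lcp1 had 2221 and 2382 CPM in those macrophage groups. It had 28.9 CPM in reporter-positive and 32.9 CPM in reporter-negative tumor cells. Msr1 had 1340 CPM in FceRIa-positive and 642 CPM in FceRIa-negative macrophages against 1.09 CPM in tumor cells, or ratios of 1226 and 587. In FceRIa-positive and FceRIa-negative macrophages the ratios were 466 and 159 for Mrc1 (6.13 CPM in tumor cells), 391 and 33.1 for Cd163 (0.429 CPM) and 149 and 11.5 for Folr2 (0.126 CPM). Lyve1 had 17.3 CPM in FceRIa-positive and 0.860 CPM in FceRIa-negative macrophages against 1.35 CPM in tumor cells, or ratios of 12.8 and 0.637. Stab1 had 1365 and 389 CPM in those groups against 201 CPM, or ratios of 6.81 and 1.94. Cell type and deposited table coincide here, so these ratios were not tested. The other 4 receptors had few reads in tumor cells, with 14 counts of Timd4, 6 of Vsig4, 1 of Marco and 0 of Cd5l over the 6 libraries. Stab1 took 90.6% of the summed TPM of the 10 genes in reporter-positive and 91.3% in reporter-negative tumor cells.

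Mrc1 was the only receptor whose tumor libraries did not overlap by reporter state. It had 7.34, 7.15 and 7.21 CPM in reporter-positive replicates 1 to 3 and 5.26, 4.09 and 4.74 CPM in reporter-negative replicates 1 to 3. Of the 13604 genes tested in tumor cells, 14.6% had groups apart in that direction. Mrc1 rose by 0.63 ± 0.11 in the blocked fit (adjusted p = 0.0185), its unblocked adjusted p was 0.0834 and its paired one without replicate 3 was 0.0613, and its means were 7.23 ± 0.0947 CPM in reporter-positive and 4.70 ± 0.588 CPM in reporter-negative cells (SD, n = 3 each). The leukocyte genes Csf1r and Ptprc were highest in replicate 2 of both groups, where Mrc1 was lowest. Csf1r had 2.72, 11.3 and 2.52 CPM in reporter-positive and 1.91, 8.12 and 1.56 CPM in reporter-negative libraries. Ptprc had 0.917, 2.56 and 1.07 CPM against 0.996, 1.73 and 0.681 CPM. The ratio of reporter-positive to reporter-negative level within a replicate number was 1.39 to 1.75 for Mrc1. For Csf1r it was 1.39 to 1.62, and for Ptprc 0.921 to 1.57. Csf1r rose by 0.54 in the blocked fit. The part of leukocytes in the Mrc1 difference was not tested.

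**Figure D5:**
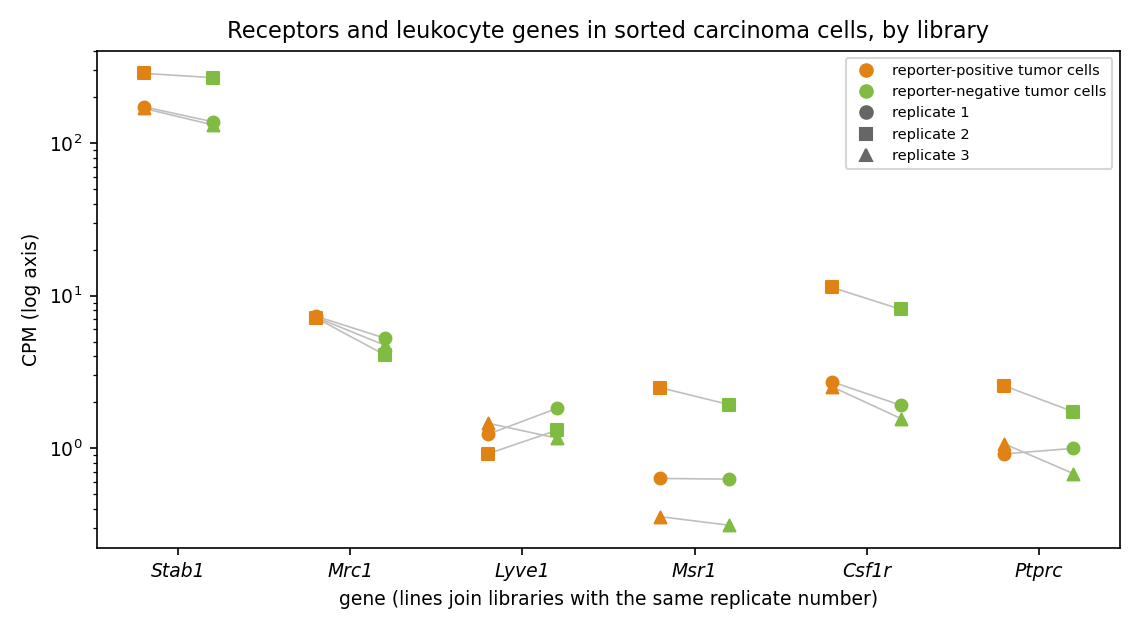
CPM (log axis) of 4 receptors and of the leukocyte genes Csf1r and Ptprc in each tumor library, reporter-positive in orange to the left of reporter-negative in green, with a line joining libraries of the same replicate number. Mrc1 separates the groups, at 7.15 to 7.34 CPM against 4.09 to 5.26 CPM, while Stab1, Msr1, Csf1r and Ptprc are highest in replicate 2 of both groups.

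Stab1 had 173, 287 and 169 CPM in reporter-positive and 138, 269 and 132 CPM in reporter-negative tumor cells. Its groups overlapped, and replicate 2 was the highest of each. It rose by 0.26 ± 0.07 in the blocked fit (adjusted p = 0.0424, unblocked 0.784). The paired adjusted p was 0.219 without replicate 1 and 0.245 without replicate 3. Stab1 shares 112 exon bases with Nt5dc2 on the opposite strand, which had 92098 counts over the 6 tumor libraries and 14494 over the 6 macrophage libraries. The ratio of Stab1 to Nt5dc2 counts was 0.377, 0.648 and 0.376 in reporter-positive and 0.262, 0.559 and 0.257 in reporter-negative tumor cells, and 4.71 to 22.9 in macrophages. Nt5dc2 itself had 460, 443 and 450 CPM in reporter-positive and 529, 481 and 514 CPM in reporter-negative cells. How many Stab1 reads in tumor cells lie in the shared bases was not tested.

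Of the other receptors, Lyve1 had 1.23, 0.918 and 1.46 CPM in reporter-positive and 1.82, 1.31 and 1.16 CPM in reporter-negative tumor cells, with overlapping groups (paired log2 difference -0.25, adjusted p = 0.526). On the common scale its tumor libraries overlapped those of FceRIa-negative macrophages. Msr1 had 0.632, 2.49 and 0.355 CPM against 0.626, 1.93 and 0.312 CPM and followed the leukocyte genes in being highest in replicate 2 (0.23, adjusted p = 0.521). Cd163 had 0.791, 0.230 and 0.746 CPM against 0.541, 0.0655 and 0.142 CPM, and its paired log2 difference of 1.28 ± 0.44 had an adjusted p of 0.0954, or 0.0162 without replicate 2. In all, 5 of the 10 receptors were tested in tumor cells, 2 rose in the blocked fit, where 10.7% of tested genes rose, and 0 were called in the unblocked fit, where 0.573% were. At an unadjusted p under 0.05 the unblocked fit had 1 of the 5, Mrc1, where 11.1% of tested genes were higher at that p, and DESeq2 without pairing also called 1, where it called 5.2% higher. Folr2, Vsig4, Timd4 and Marco were at 8 counts or fewer in every tumor library, and a difference was not detectable at that depth.

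The tumor libraries carried the epithelial genes of their label at high levels and leukocyte genes at low ones. Keratinocyte markers summed to 76356 to 97258 CPM in reporter-positive and 76727 to 86372 CPM in reporter-negative libraries, and leukocyte markers to 33.1 to 138 CPM against 41.5 to 114 CPM. Macrophage markers summed to 19.2 to 88.5 CPM against 14.9 to 64.7 CPM, and in the blocked fit 2 of 10 rose, Lyz2 by 0.43 and Csf1r by 0.54. Endothelial markers summed to 131 to 152 CPM against 138 to 154 CPM, most of it Pdpn, which basal carcinoma cells also carry, and 0 of 9 tested genes were called. The part of such cells in the Mrc1 and Stab1 differences was not tested.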

How the data were processed

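Libraries were made with the Illumina TruSeq v2 kit from 100 ng RNA of sorted cells, per the labels' protocols. The authors deposited raw read counts per gene, in a table for macrophages and another for tumor cells. FastQC, STAR and the mouse build mm10 (GRCm38) are named in the submitters' processing notes. No counting tool, annotation release or strand setting is given in the sources used here. There were 4 further count columns that match no sample, and these were not used. The column names of macrophage replicate 2 end in New in both groups, unlike those of the other replicates. What that ending marks is not given in the sources used here. All 53801 rows of a table name a gene, and 53706 of them were found in GENCODE M21, the source of exon lengths and gene spans.

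Each comparison was tested on its own 6 libraries in R 4.3.3 with edgeR 4.0.16: TMM scaling, filterByExpr with a minimum count of 10, the quasi-likelihood test and Benjamini-Hochberg adjustment at a threshold of 0.05. This kept 14988 genes in macrophages and 13604 in tumor cells. The planned model had the groups alone, and a block for the replicate number was its alternative. What a number marks is not stated in the labels, so pairing was judged from the data. The correlation of deviations from the group means was 0.688, 0.787 and 0.734 for macrophage libraries that share number 1, 2 and 3, and 0.449, 0.703 and 0.488 for tumor libraries. All exceeded 0.1, so blocked values are printed where a call changes. Tumor numbers 1 and 3 were not separated, since reporter-positive 1 and reporter-negative 3 correlated at 0.483. With all 6 libraries, residual degrees of freedom were 2 with the block and 4 without, and they were fewer when a pair was left out.

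The 10 receptors and 13 other gene lists were chosen with earlier results of these data known. Named were all receptors, up to 4 genes per list by smallest unadjusted p in unblocked macrophages, the sort genes, and the 5 genes most like the receptors' mean profile (log2 of CPM plus 0.5). Picked outside that rule, with their values known, were Prox1, Epcam, Cd207, Cd24a, Nt5dc2, Csf1r and markers named for low counts. So were the leukocyte genes compared between cell types and the genes of the closing section. Scripts were tested on simulated counts. Alternatives were DESeq2 1.42.0, different scaling and filters, the block, omission of each library or pair, library totals without TMM, and the longest transcript as length.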

Additional observations from a re-analysis of the deposited data

How the results depend on the processing

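In macrophages the number of receptors called higher was 0 without pairing, 7 with no filter on low counts, 7 with DESeq2, 9 with the replicate block in edgeR, 9 with the block in DESeq2, and 6, 8 and 10 with the block and without replicate 1, 2 and 3 of both groups. Over all genes, calls higher and lower were 0 and 0 without pairing, 292 and 331 with no filter, 658 and 605 with DESeq2, 1618 and 1524 with the replicate block, 1445 and 1362 with the block in DESeq2, and 626 and 691, 1298 and 1374, and 1743 and 1606 with the block and without pair 1, 2 and 3. Leaving out single libraries without pairing gave 0 to 0 higher and 0 to 2 lower. Of 144 alternative log2 differences of the receptors in macrophages 0 changed sign.

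In tumor cells the receptors called higher were 0 without pairing, 1 with DESeq2, 2 with the replicate block in either tool, and 1, 3 and 0 with the block and without replicate 1, 2 and 3. Over all genes, 78 higher and 32 lower became 708 and 455 with DESeq2, 1450 and 999 with the replicate block, 1043 and 644 with the block in DESeq2, and 1055 and 498, 2927 and 2802, and 803 and 340 with the block and without pair 1, 2 and 3. With no filter 173 were higher. Leaving out single libraries gave 0 to 391 higher and 0 to 230 lower. Without pairing, leaving out single libraries gave Stab1 log2 differences from -0.078 (without reporter-positive replicate 2) to 0.63, and Msr1 differences from -0.93 (without reporter-positive replicate 2) to 1.30, with -0.13 without reporter-negative replicate 3.

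Levels moved by more than the spread of replicates in 4 of 80 cases: Mrc1 in reporter-positive cells was 7.14 CPM from library totals, and with the longest transcript Timd4 was 2.73 TPM in FceRIa-positive macrophages and Msr1 851 TPM in FceRIa-positive and 423 TPM in FceRIa-negative macrophages. The causes were not tested. Cd5l in macrophages and Folr2, Vsig4, Timd4, Marco and Cd5l in tumor cells did not pass the filter on low counts and were not tested. The number of receptors with groups apart was recounted after the data were seen. In macrophages it was 8 from library totals, where 7.1% of tested genes were apart, and also 8 as TPM. In tumor cells it was 1 on both measures. Shares over all genes are not given for TPM or for tumor library totals, so those counts cannot be set against them.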

Other observations

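Further genes of the resident-type and scavenger lists, picked after their values were seen, gave these values in macrophages. Ccl8, a chemokine, was at 266 ± 86.4 CPM in FceRIa-positive and 16.4 ± 16.7 CPM in FceRIa-negative libraries (SD, n = 3 each), and rose by 4.42 on the log2 scale in the fit with the replicate block. The growth factor gene Igf1 was at 19.9 ± 5.11 CPM in positive and 1.77 ± 1.63 CPM in negative libraries and rose by 3.67. Gas6, a bridging ligand for the engulfment of dying cells by Mertk, was at 261 ± 55.8 against 48.6 ± 27.0 CPM and rose by 2.59. The transcription factor gene Maf was at 444 ± 139 against 125 ± 53.7 CPM and rose by 1.88. Siglec1, the sialic acid receptor of tissue macrophages, was at 59.3 ± 26.7 against 13.4 ± 4.89 CPM and rose by 2.11. Hmox1, which breaks down the heme that Cd163 brings in, was at 359 ± 118 against 142 ± 30.3 CPM and rose by 1.31. The lipid mediator genes Ltc4s and Hpgd were the 2 resident-type genes that fell. Ltc4s fell by 1.10 with 18.0 ± 3.25 against 39.2 ± 9.92 CPM. Hpgd fell by 0.58 with 40.9 ± 65.8 against 55.4 ± 87.5 CPM, where the SD exceeded the mean in both groups. In the fit without the block 0 of these genes passed the threshold.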
